A study of Mus musculus with 18 samples.

Results

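Mature interstitial macrophages (matIMs) were compared with transitional interstitial macrophages (tnsIMs, trIM in the labels) from lungs of mice in which ezrin (*Ezr*) had been deleted in *Cx3cr1*-expressing cells, the last step of the monocyte-to-macrophage series that the study followed. The comparison rests on 6 of the 18 bulk RNA-seq libraries, 3 of matIMs and 3 of tnsIMs, chosen by their labels alone, and all 21254 genes of the count table were considered. The *Ezr*-KOm mice were C57BL/6 animals of 3 to 5 months with floxed *Ezr* alleles and Cre recombinase in the *Cx3cr1* locus (B6.Cx3cr1tm1.1(cre)Jung/J), and the WT mice of the same age carried that Cre without floxed *Ezr*. Every mouse, WT included, had been given 12.5 mg of *Pseudomonas aeruginosa* lipopolysaccharide (LPS) in 5 ml of PBS by nebulization over 15 min and was sacrificed 24 h later, so no group is free of Cre or of LPS. matIMs were sorted as CD45+ CD11b+ MHC-II+ Ly6C- cells and tnsIMs as CD45+ CD11b+ MHC-II+ Ly6C+ cells according to the labels, whereas the gate printed for matIMs in the methods of the study reads Ly6C+ MHC-II-. The methods also place both gates in a CD11c- fraction. Excision follows *Cx3cr1* activity, so cells that never switched on this chemokine receptor gene keep *Ezr*. No label says which libraries share a mouse.

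Interstitial macrophages occupy the lung tissue between airspace and capillary, and during inflammation part of them arises from Ly6C+ monocytes that lose Ly6C and gain MHC class II as they mature. Ezrin, with radixin and moesin, forms the ERM family, which ties membrane proteins such as CD44, PSGL-1 and podocalyxin to cortical actin and so shapes protrusions, adhesion and migration. Cells of the monocyte and dendritic cell lineages share many surface proteins, and the dendritic cells that leave tissue for lymph nodes carry CCR7, fascin and MHC class II at high levels, so a gate on CD11b, MHC-II and Ly6C can hold more than one of these cell types.

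The 6 libraries held 22505766 to 48460995 counts, the replicate 2 library of tnsIMs being the deepest, and edgeR's filter on low counts left 15811 genes to test. Counts were scaled with TMM factors (1.001 to 1.06 in the 6 libraries), and levels are given as CPM, the counts scaled to a common library size, in the order of replicates 1, 2 and 3. CPM are not divided by gene length, so levels are compared between libraries and not between genes. Genes with an adjusted p below 0.05 were called, by a two-sided test in edgeR whose fit drew the spread from all 6 groups of the study (12 residual degrees of freedom). The log2 fold change, matIM minus tnsIM, is written log2FC and given with its SE. The 3 matIM libraries all lay above the 3 tnsIM libraries for 15.5% of the genes tested and all below for 15.7%, and groups are called separate where this holds. In bulk libraries fewer cells of a type and less RNA per cell cannot be told apart, and this holds for every difference given here.

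*Ezr* itself (chr17:7005440-7050183, minus strand) was low in both *Ezr*-KOm populations. Its level was 234, 126 and 213 CPM in tnsIMs and 167, 93.8 and 144 CPM in matIMs of *Ezr*-KOm mice, against 679, 515 and 565 CPM in WT tnsIMs and 741, 632 and 611 CPM in WT matIMs. All 6 *Ezr*-KOm libraries lay below all 6 WT libraries, and transcript counted over the whole gene remained in each. Within *Ezr*-KOm cells *Ezr* was lower in the matIM than in the tnsIM library of the same number in 3 of 3 pairs, but the groups overlapped and the difference was not called (log2FC -0.50, SE 0.24, edgeR adjusted p = 0.181). With the replicate number as a block it was called (log2FC -0.49, edgeR adjusted p = 0.00386). In WT cells the corresponding log2FC was 0.17, and the difference between the genotypes was -0.67 (edgeR adjusted p = 1, with and without the block). The other ERM genes, *Msn* (moesin) and *Rdx* (radixin), had log2FC of -0.04 and 0.12 and were not called.

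The genes behind the gates followed the labels for Ly6C. *Ly6c2* stood at 413, 213 and 199 CPM in tnsIMs and 76.5, 28.7 and 37.4 CPM in matIMs (log2FC -2.53, SE 0.39, edgeR adjusted p = 0.000129). *Ly6c1* was at 66, 113 and 103 CPM in tnsIMs and 8.21, 7.74 and 12 CPM in matIMs (log2FC -3.34, SE 0.30, edgeR adjusted p = 4.92e-07). The groups did not overlap for either gene, although the 2 copies are near-identical and can share reads, and *Ly6c1* is also made by lung endothelium. Of 3 genes for MHC class II chains, *H2-Eb1* was called higher (log2FC 0.73, edgeR adjusted p = 0.0191). That call was lost without matIM replicate 1 or 3 or tnsIM replicate 1 or 3. Which of these chains the MHC-II antibody of the sort bound was not measured here. *H2-Aa* (0.53, edgeR adjusted p = 0.11) and *H2-Ab1* (0.44, edgeR adjusted p = 0.259) were not called, and with the replicate block *H2-Aa* was (edgeR adjusted p = 0.0261). *Itgam*, which encodes CD11b, fell from 253, 311 and 252 to 158, 195 and 127 CPM (log2FC -0.77, edgeR adjusted p = 0.00183). *Itgax*, which encodes the CD11c that the methods used for exclusion, was at 611, 494 and 634 CPM in tnsIMs and 727, 551 and 474 CPM in matIMs and was not called, and neither were *Ptprc* (CD45, 0.09), *Cd24a* (-0.17) and *Cx3cr1* (0.14).

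Between *Ezr*-KOm tnsIMs and matIMs 2881 of the 15811 genes tested changed (18.2%), 1323 of them higher in matIMs (8.37%) and 1558 lower (9.85%). The median log2FC was 1.33 over the genes called higher, -1.98 over the genes called lower and 0.02 over all genes tested, and 418 genes rose and 771 fell by more than 2 on the log2 scale. By the thresholds of the study, log2FC beyond 0.75 either way at a raw p below 0.05, the genes numbered 3151 (19.9%). The ranking that follows takes called genes and leaves out provisional names (Gm, Rik or accession numbers), pseudogenes, and immunoglobulin and T cell receptor segments. Among genes of at least 10 CPM in the higher group, the largest rises were in *Apol7c* (4.76), *Klri1* (4.29), *Cacnb3* (4.27), *Pla2g4f* (4.26), *Fscn1* (4.24) and *Aldh1a2* (4.24), followed by *Nudt17* (4.20), *Mmp23* (4.13), *Septin3* (4.09), *Slc27a3* (4.07), *Adam23* (3.96) and *Vmn2r26* (3.96), with log2FC in parentheses. *Cacnb3* encodes a calcium channel subunit, *Aldh1a2* the enzyme that makes retinoic acid, *Klri1* an inhibitory lectin-like receptor and *Pla2g4f* a phospholipase A2. The largest falls were in *Ecscr* (-3.81), *Ackr3* (-3.77), *Gucy1a1* (-3.71), *Itih4* (-3.67), *Tie1* (-3.66) and *Dll1* (-3.64), followed by *Egfl7* (-3.62), *Sftpc* (-3.62), *Ptprk* (-3.61), *Sema3f* (-3.58), *Podxl* (-3.56) and *Sftpd* (-3.53). *Ecscr*, *Tie1* and *Egfl7* are genes of endothelial cells, and *Sftpc* and *Sftpd* encode surfactant proteins of the alveolar epithelium. For 37 of the genes called higher no tnsIM library held more than 3 counts, and for 101 of those called lower no matIM library did. None of the genes named with values here was among them. Counts of list members given below are to be read against the shares over all genes, 8.37% higher and 9.85% lower.

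**Figure D1:**
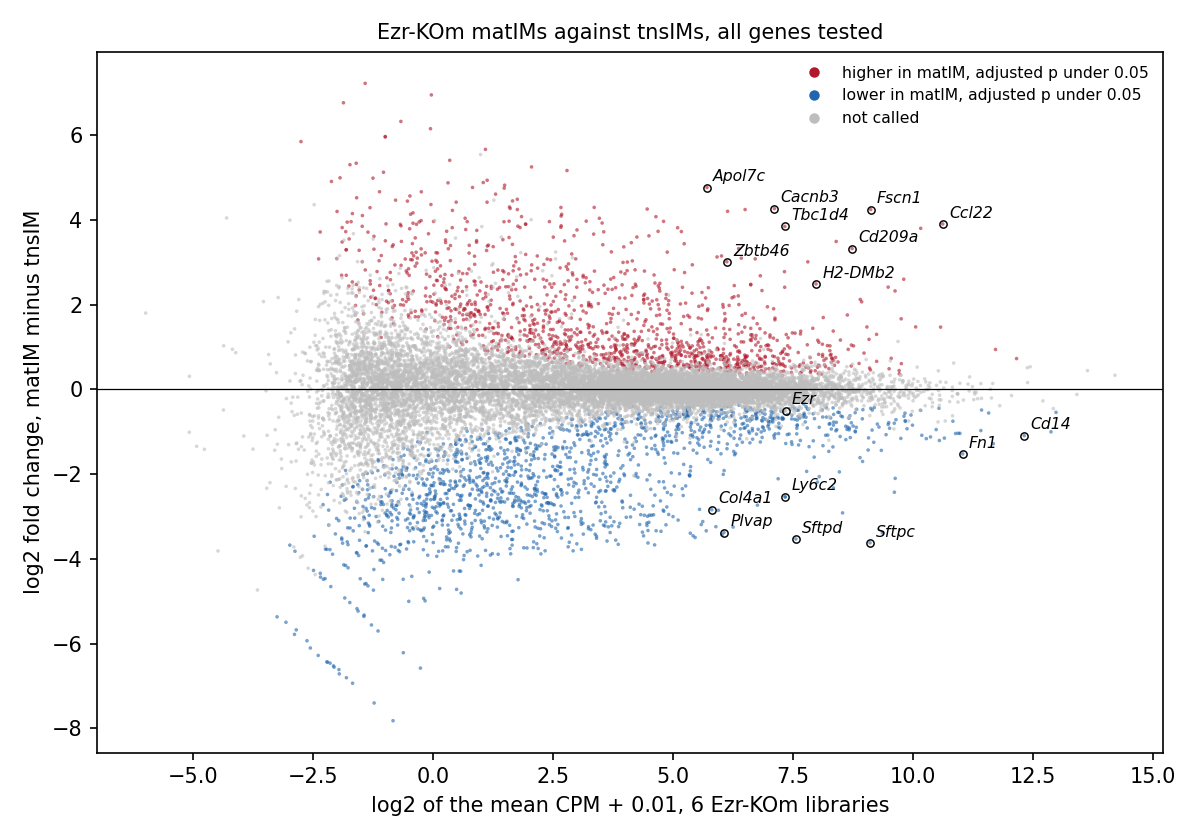
Each point is 1 of the 15811 genes tested, with the log2 of its mean CPM over the 6 *Ezr*-KOm libraries on the horizontal axis and its log2 fold change, matIM minus tnsIM, on the vertical axis. The 1323 genes called higher (red) and 1558 called lower (blue) spread over all levels. Among abundant genes *Fscn1* (4.24) and *Cacnb3* (4.27) lie near the upper edge and *Sftpc* (-3.62) near the lower edge, and the points beyond them are genes of lower level.

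The genes of mature migratory dendritic cells rose as a group. Of the 31 list members tested, 26 were called higher and 1 lower, with a median log2FC of 1.70 against 0.02 over all genes, and their summed level was 6505 to 7411 CPM in tnsIMs and 18268 to 21526 CPM in matIMs. *Ccr7*, the receptor that guides dendritic cells along CCL19 and CCL21 into lymphatics, was at 136, 181 and 143 CPM in tnsIMs and 2418, 2132 and 1859.5 CPM in matIMs (log2FC 3.80, SE 0.27, edgeR adjusted p = 3.53e-08). *Fscn1*, which encodes the actin-bundling protein fascin, was at 32.2, 87 and 47.6 CPM in tnsIMs and 939.9, 1195 and 1036 CPM in matIMs (log2FC 4.24, SE 0.31, edgeR adjusted p = 7.86e-08). *Ccl22*, a ligand of CCR4 on T cells, was at 154, 232 and 205 CPM in tnsIMs and 3290.5, 2891 and 2666 CPM in matIMs (log2FC 3.90, SE 0.23, edgeR adjusted p = 5.19e-09). The lowest matIM library exceeded the highest tnsIM library in all 3 genes, and the *Ezr*-KOm monocyte-derived macrophages (moMs), which precede tnsIMs, had still less, at 28.3, 14 and 14.7 CPM for *Ccr7*, 1.17, 2.01 and 1.5 CPM for *Fscn1* and 10.7, 5.98 and 12 CPM for *Ccl22*. *Tbc1d4*, a Rab GTPase-activating protein, had the smallest p of all genes and was at 21, 22.4 and 19.3 CPM in tnsIMs and 309, 372 and 222 CPM in matIMs (log2FC 3.85, SE 0.19, edgeR adjusted p = 9.56e-10). Further members that rose were *Rabgap1l* (2.94), *Tmem123* (2.32), *Ccl17* (2.60), *Socs2* (1.53) and *Relb* (1.05). *Lamp3*, which fell (-3.39), is also a gene of type 2 alveolar epithelial cells, and the 4 members not called were *Cd40* (0.64), *Cd63* (0.44), *Gadd45b* (-0.10) and *Anxa3* (0.02), of which the replicate block called *Cd40* (edgeR adjusted p = 0.0015). *Traf1*, a signal adapter of TNF receptors, was called by a narrow margin and lost its call in 10 of 15 alternatives, 6 of which each left out 1 library, and *Il12b* lost its call without matIM replicate 1 or tnsIM replicate 2.

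The promoters of these 26 genes, the 250 bases before the start of the canonical transcript (Gencode on GRCm39, read 5' to 3' along the gene), were searched on both strands for 3 motifs of factors known from dendritic cells. The AP-1 site, TGANTCA, stood in 5 of the 26 promoters (19.2%), against 631 of the 13212 promoters of tested protein-coding genes (4.78%), 4.49% of those of genes called higher and 6.29% of those of genes called lower. The NF-kappaB consensus stood in 2 of 26 (7.69%, against 4.5% of all promoters) and the PU.1-IRF composite site in 2 of 26 (7.69%, against 2.4%). These are counts of letters in short windows over few genes, given without a test, and no binding was measured. Printed here are the promoters that carried such a match in 5 of the members that rose, with the AP-1 site in capitals in *Ccr7*, *Slco5a1* and *Cd200*, the NF-kappaB site in *Relb*, and in *Ccl5* first the PU.1-IRF composite site and then the NF-kappaB site, both on the opposite strand.
Ccr7, chr11:99045912-99046161, minus strand: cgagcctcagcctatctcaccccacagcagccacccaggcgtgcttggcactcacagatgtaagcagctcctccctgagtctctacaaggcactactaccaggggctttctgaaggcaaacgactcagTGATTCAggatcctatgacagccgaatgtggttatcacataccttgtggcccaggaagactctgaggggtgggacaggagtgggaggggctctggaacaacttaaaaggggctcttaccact
Slco5a1, chr1:13061402-13061651, minus strand: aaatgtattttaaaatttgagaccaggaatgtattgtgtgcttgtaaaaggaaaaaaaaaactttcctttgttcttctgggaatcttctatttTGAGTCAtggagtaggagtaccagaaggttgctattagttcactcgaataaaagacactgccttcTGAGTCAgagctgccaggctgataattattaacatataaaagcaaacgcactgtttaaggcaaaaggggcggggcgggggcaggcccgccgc
Cd200, chr16:45229595-45229844, minus strand: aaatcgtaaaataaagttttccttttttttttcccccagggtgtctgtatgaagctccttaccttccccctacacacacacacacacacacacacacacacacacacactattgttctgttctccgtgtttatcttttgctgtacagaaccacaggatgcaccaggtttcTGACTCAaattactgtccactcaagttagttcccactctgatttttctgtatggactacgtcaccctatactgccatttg
Relb, chr7:19363424-19363673, minus strand: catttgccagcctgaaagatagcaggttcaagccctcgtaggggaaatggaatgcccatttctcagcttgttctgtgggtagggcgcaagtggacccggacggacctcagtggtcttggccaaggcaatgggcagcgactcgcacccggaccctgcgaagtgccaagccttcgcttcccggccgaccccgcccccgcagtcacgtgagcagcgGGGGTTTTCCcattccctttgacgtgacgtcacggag
Ccl5, chr11:83421346-83421595, minus strand: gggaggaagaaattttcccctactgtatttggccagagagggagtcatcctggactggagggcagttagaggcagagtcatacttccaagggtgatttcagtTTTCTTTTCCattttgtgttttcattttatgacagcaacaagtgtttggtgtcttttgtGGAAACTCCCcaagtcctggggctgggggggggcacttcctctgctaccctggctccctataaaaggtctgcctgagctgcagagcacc

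The AP-1 match of *Ccr7* began 122 bases before the start, that of *Cd200* 80 bases and those of *Slco5a1*, an organic anion transporter family gene, 157 and 92 bases. *Slco5a1* was at 0.748, 0.259 and 0.466 CPM in tnsIMs and 5.2, 8.57 and 7.5 CPM in matIMs. *Cd200*, whose product restrains myeloid cells through its receptor, was at 45.9, 65.1 and 62.5 CPM in tnsIMs and 107, 131 and 87.6 CPM in matIMs. *Relb*, the NF-kappaB subunit of dendritic cell maturation, whose match lay 37 bases before its start, was at 138, 157 and 139.97 CPM in tnsIMs and 288, 326 and 287 CPM in matIMs (log2FC 1.05, SE 0.14, edgeR adjusted p = 1.87e-05). *Ccl5*, a chemokine for T cells and monocytes, was at 225, 194 and 146 CPM in tnsIMs and 701, 957 and 707 CPM in matIMs (log2FC 2.07, edgeR adjusted p = 0.00158). For these 4 genes too, each matIM library exceeded each tnsIM library.

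Genes of conventional dendritic cells of type 2, or shared by conventional dendritic cells, moved the same way, with 13 of 18 members higher, 0 lower and a median log2FC of 2.14. Their summed level was 1979 to 2178 CPM in tnsIMs and 5013 to 6051 CPM in matIMs. *Zbtb46*, the transcription factor that marks the conventional dendritic cell lineage, was at 12.8, 15.5 and 17.8 CPM in tnsIMs and 117, 147 and 108 CPM in matIMs (log2FC 3.01, SE 0.27, edgeR adjusted p = 5.12e-07). *Flt3*, the receptor of the cytokine on which dendritic cells depend, was at 9.02, 20.5 and 24.2 CPM in tnsIMs and 111, 197 and 153 CPM in matIMs (log2FC 3.10, SE 0.34, edgeR adjusted p = 2.96e-06). *Cd209a*, a DC-SIGN homolog of monocyte-derived and type 2 dendritic cells, was at 45.5, 64.3 and 122 CPM in tnsIMs and 439, 696 and 1182 CPM in matIMs (log2FC 3.32, SE 0.63, edgeR adjusted p = 0.00081). All 3 were separate between the groups, although *Cd209a* belongs to a family of close copies and varied up to 1182 CPM in matIM replicate 3. *Mgl2* (2.41), *Clec10a* (2.47), *Dpp4* (2.33), *Cd7* (2.80) and *Spib* (2.29) also rose. Of the type 1 conventional dendritic cell list, 7 of 16 were higher, among them *Septin3* (4.09), *Gcsam* (3.14), *Itgae* (3.06), *Tlr11* (2.57) and *Wdfy4* (1.17), and 0 lower (1 lower without tnsIM replicate 2, and 3 higher with at least 10 counts in every library), but the defining genes *Xcr1* (0.06), *Clec9a* (1.21) and *Irf8* (0.13) were not called. *Xcr1* lay at 6.61, 3.65 and 3.69 CPM in tnsIMs and 5.77, 4.33 and 4.32 CPM in matIMs and *Clec9a* at 1.58, 1.1 and 2.2 CPM in tnsIMs and 4.37, 2.72 and 4.07 CPM in matIMs. In the plasmacytoid list *Spib* (2.29) and *Ly6d* (1.24) were higher and *Lair1* (-0.92) was lower among 11 members, and *Siglech* (0.61) was not called. The plasmacytoid list summed to 450 to 568 CPM in tnsIMs and 368 to 423 CPM in matIMs. Leaving out matIM replicate 3 or tnsIM replicate 1 or 2 ended the call of *Ly6d*, and leaving out tnsIM replicate 3 made 2 lower. The gates do not exclude dendritic cells that lack CD11c on their surface, and whether the summed dendritic cell genes come from such cells or from the macrophages themselves was not tested.

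**Figure D2:**
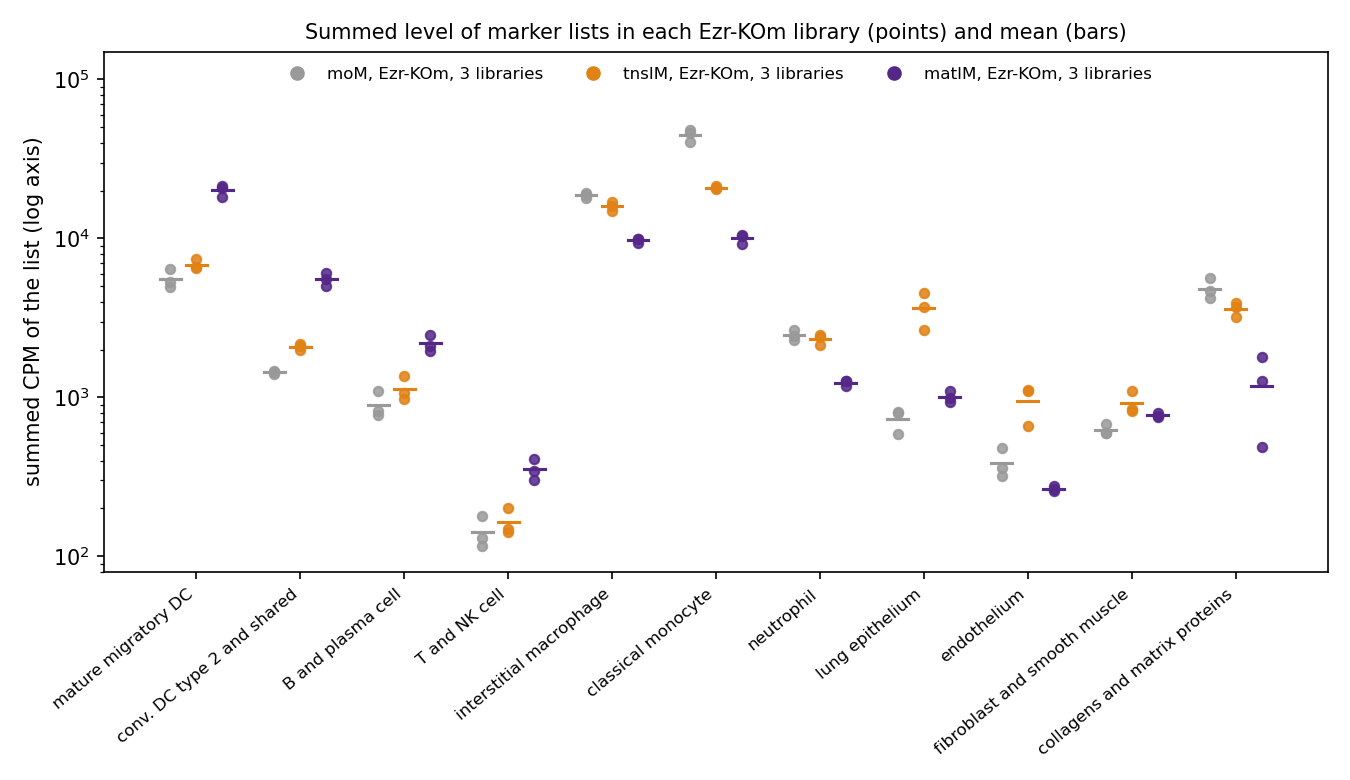
Points are the summed CPM of each marker list in 1 *Ezr*-KOm library on a log axis, for moMs (grey), tnsIMs (orange) and matIMs (purple), and bars are the means of 3 libraries. The mature migratory and type 2 conventional dendritic cell (DC) lists, the B and plasma cell list and the T and NK cell list lie higher in the 3 matIM libraries than in the 3 tnsIM libraries, whereas the monocyte, neutrophil, epithelial and endothelial lists lie lower.

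The MHC class II pathway rose in part. Of 13 members 6 were higher and 0 lower (median 0.57). *H2-DMb2*, a chain of the peptide editor H2-M, was at 82.1, 62.3 and 84.7 CPM in tnsIMs and 439.9, 412 and 433 CPM in matIMs (log2FC 2.49, SE 0.15, edgeR adjusted p = 8.83e-09). *H2-Oa* and *H2-Ob* encode its regulator H2-O. *H2-Oa* was at 3.49, 6.9 and 5.51 CPM in tnsIMs and 28.4, 39.7 and 43 CPM in matIMs. *H2-Ob* was at 22.4, 20.3 and 36.2 CPM in tnsIMs and 92.6, 88.7 and 134 CPM in matIMs. No tnsIM library reached the lowest matIM library in these genes. *H2-Eb2* (2.30) and *Ciita* (1.03), the class II transactivator, were also higher, the latter not without matIM replicate 3 or tnsIM replicate 1 or 2. The abundant chains *Cd74* (0.33), *H2-DMa* (0.06) and *H2-DMb1* (0.16) were not called. In the MHC class I list 0 of 19 members were called in either direction by edgeR or DESeq2, 2 having an unadjusted p under 0.05 in edgeR. Without tnsIM replicate 1 the list held 1 higher member, and the replicate block gave 4 higher, among them *Tap1* (edgeR adjusted p = 0.00186). Costimulatory and checkpoint ligands were higher for 11 of 19 members and lower for 2 (median 0.74). *Icosl*, the ligand of ICOS on T cells, was at 90.8, 119.7 and 137 CPM in tnsIMs and 269, 271 and 322 CPM in matIMs (log2FC 1.31, SE 0.19, edgeR adjusted p = 7.34e-05). *Pdcd1lg2*, which encodes the PD-1 ligand PD-L2, was at 8.73, 5.43 and 11.7 CPM in tnsIMs and 36.4, 21.7 and 32.3 CPM in matIMs (log2FC 1.81, SE 0.34, edgeR adjusted p = 0.00084). Both were separate between the groups. Further rises were in *Cd70* by 3.38, in the OX40 pair *Tnfrsf4* and *Tnfsf4* by 2.79 and 2.80 and in *Tnfrsf9*, which encodes 4-1BB, by 2.16 on the log2 scale. *Cd274* (PD-L1, 0.21) and *Cd80* (0.54) were not called, and with the replicate block *Cd80* was (edgeR adjusted p = 0.00302). *Cd276* fell (-1.61), and *Lgals9*, which also fell (-0.68), lost its call without matIM replicate 2 or 3 or tnsIM replicate 1, 1 list member being lower without either of those matIM libraries.

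CC chemokines moved in both directions. Those called higher, 4 of 12, were *Ccl22* (3.90), *Ccl17* (2.60), *Ccl8* (2.46) and *Ccl5* (2.07), and the 6 called lower were *Ccl24* (-2.85), *Ccl12* (-1.36), *Ccl2* (-1.16), *Ccl3* (-0.93), *Ccl7* (-0.82) and *Ccl6* (-0.76). *Ccl2*, the ligand of CCR2 that draws monocytes, was at 1428, 1183 and 949 CPM in tnsIMs and 541, 491 and 566 CPM in matIMs (log2FC -1.16, SE 0.22, edgeR adjusted p = 0.000789). *Ccl3*, a chemokine that draws leukocytes through CCR1, was at 1279.7, 1345 and 1070.2 CPM in tnsIMs and 712, 669 and 560.3 CPM in matIMs (log2FC -0.93, SE 0.22, edgeR adjusted p = 0.00583). The groups did not overlap for either, whereas the calls of *Ccl6* and *Ccl7* were lost without tnsIM replicate 1, and that of *Ccl7* also without matIM replicate 1 or 2 or tnsIM replicate 2. Among 14 CXC chemokines *Cxcl13*, the attractant of B cells through CXCR5, was the 1 member called higher, from 30, 65.6 and 69.9 CPM in tnsIMs to 297, 806 and 759 CPM in matIMs (log2FC 3.49, SE 0.41, edgeR adjusted p = 6.32e-06). Without tnsIM replicate 2 the members called higher were 2, and with the replicate block 3. *Cxcl13* stood at 2.26, 1.85 and 1.41 CPM in moMs. The neutrophil attractant *Cxcl2* fell, with 5227, 5088 and 3579 CPM in tnsIMs and 2464, 1796 and 1462 CPM in matIMs (log2FC -1.28, SE 0.31, edgeR adjusted p = 0.00665), as did *Cxcl12* (-2.23), *Cxcl5* (-2.34) and *Cxcl15* (-3.33), of which *Cxcl15* and *Cxcl5* are typical of lung epithelium, and *Cxcl1* (-0.47), *Cxcl10* (-0.62) and *Cxcl9* (0.25) were not called. The replicate block gave 6 CXC members lower instead of 4 and called *Cxcl10* and *Cxcl1* (edgeR adjusted p = 0.000799 and 0.0483).

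Chemoattractant receptors fell for 9 of 22 members and rose for 3, *Ccr7* (3.80), *Cxcr5* (2.22) and *Ccr6* (1.66), *Ccr7* and *Cxcr5* encoding receptors that lead cells into lymphoid tissue. *C5ar1*, the receptor of the complement fragment C5a, was at 622, 877 and 655 CPM in tnsIMs and 242, 268 and 196 CPM in matIMs (log2FC -1.61, SE 0.16, edgeR adjusted p = 1.34e-06). *Ccrl2*, which presents chemerin, was at 2424, 2372 and 1866 CPM in tnsIMs and 1253, 971 and 779 CPM in matIMs (log2FC -1.15, SE 0.18, edgeR adjusted p = 0.000159). No matIM library reached the tnsIM libraries in these genes. *Ackr3* (-3.77), *S1pr1* (-1.65), *Fpr2* (-1.29) and *Cmklr1* (-1.23) fell as well, *Fpr2* being a formyl peptide receptor and *S1pr1* the receptor for egress along sphingosine-1-phosphate. *Ccr2*, the defining receptor of inflammatory monocytes, was at 843, 767 and 1123 CPM in tnsIMs and 592, 756 and 641 CPM in matIMs and was not called (log2FC -0.46, edgeR adjusted p = 0.089), while the replicate block called it (edgeR adjusted p = 0.0169).

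Cytokine genes were lower in matIMs for 14 of 24 members and higher for 1, with a median of -0.94 and a summed level of 19351 to 20777 CPM in tnsIMs and 10960 to 14522 CPM in matIMs. *Osm*, oncostatin M of the interleukin 6 family, was at 1554, 1660.3 and 1934 CPM in tnsIMs and 855, 591 and 855 CPM in matIMs (log2FC -1.16, SE 0.18, edgeR adjusted p = 0.000141). *Il1rn*, the antagonist of the interleukin 1 receptor, was at 3887, 3035 and 3925 CPM in tnsIMs and 2159, 1789.5 and 1584 CPM in matIMs (log2FC -0.97, SE 0.17, edgeR adjusted p = 0.000392). *Il23a*, a subunit of interleukin 23, was at 214, 266 and 267 CPM in tnsIMs and 116, 129 and 71.9 CPM in matIMs (log2FC -1.24, edgeR adjusted p = 0.001). All 3 genes were separate between the groups. *Csf3* (-1.99) and *Csf1* (-1.17), both colony-stimulating factors, fell too, and *Il33*, an alarmin of epithelium and endothelium, fell by 3.20 on the log2 scale from levels of 24, 17.4 and 22 CPM. *Il1b* was at 9374, 9922 and 9454 CPM in tnsIMs and 7577, 5633 and 6549 CPM in matIMs (log2FC -0.54, edgeR adjusted p = 0.0269), a call lost without matIM replicate 2 or 3 or tnsIM replicate 1 or 2. *Il12b*, the subunit shared by interleukins 12 and 23, was the member called higher, with 173, 62 and 162 CPM in tnsIMs and 607, 402 and 275 CPM in matIMs, and 0 cytokines were called higher without matIM replicate 1 and 3 with the replicate block. *Tnf* (-0.93, edgeR adjusted p = 0.0784) and *Il10* (-0.94) were not called, and with the replicate block both were (edgeR adjusted p = 1.72e-05 and 0.000165). Without matIM replicate 2 the number of cytokines called lower was 9 instead of 14.

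Members of the NF-kappaB list rose for 6 of 19 genes and fell for 1. The rises were in *Birc2* (1.75), *Map3k14* (1.29), *Tnip3* (1.16), *Relb* (1.05), *Nfkb1* (0.75) and *Traf1* (0.66), and the fall was in *Tnip1* (-0.69). *Map3k14*, which encodes the kinase NIK, was at 45.7, 67.5 and 61.3 CPM in tnsIMs and 130.4, 142 and 154 CPM in matIMs (log2FC 1.29, edgeR adjusted p = 3.69e-05), and each matIM library exceeded each tnsIM library. *Nfkb2* (0.25), *Rela* (0.08) and the feedback genes *Nfkbia* (-0.15) and *Tnfaip3* (-0.07) were not called. In the list of 31 interferon-stimulated genes tested 0 were called in either direction by edgeR or DESeq2, 1 had an unadjusted p under 0.05 in edgeR, and the median log2FC was -0.20. Their summed level differed more between libraries of a group than between groups, at 3041 to 6272 CPM in tnsIMs and 3083 to 5544 CPM in matIMs. Without tnsIM replicate 2 the list held 1 lower member and with the replicate block 4, among them *Rsad2* (edgeR adjusted p = 0.00339).

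Genes of LPS recognition fell for 6 of 22 members and rose for 1, the profilin receptor *Tlr11* (2.57). *Cd14*, the coreceptor that hands LPS to TLR4, was at 7279, 7237 and 6349 CPM in tnsIMs and 3509, 3385 and 2896 CPM in matIMs (log2FC -1.09, SE 0.19, edgeR adjusted p = 0.000412). *Tlr2* was at 1244, 1161 and 1514 CPM in tnsIMs and 762, 749 and 673 CPM in matIMs (log2FC -0.84, SE 0.13, edgeR adjusted p = 7.99e-05). Both were separate between the groups, and *Tlr4* (-1.27), *Tlr7* (-0.82), *Lbp* (-2.86) and the inhibitory kinase gene *Irak3* (-0.69) fell with them, whereas *Myd88* (-0.25) and *Ly96* (0.20), the partner of TLR4, were not called. Of 8 Fc receptor genes tested *Fcgr1* (-1.05), *Fcgr3* (-0.92) and *Fcgr2b* (-0.74) fell and *Fcgrt*, the neonatal Fc receptor that recycles IgG, rose from 39.1, 51.8 and 52.6 to 99.96, 133 and 165 CPM (log2FC 1.47, SE 0.18, edgeR adjusted p = 1.16e-05). *Fcgr1* encodes CD64, a marker that separates macrophages from dendritic cells, and was at 284, 192 and 217 CPM in tnsIMs and 131, 80.8 and 122 CPM in matIMs (log2FC -1.05, edgeR adjusted p = 0.000405). The replicate block raised the number of Fc receptors called lower from 3 to 5. Complement genes fell for 7 of 17 members, among them *C3* (-1.46), *C4b* (-2.02) and *C5ar2* (-2.10), and rose for *Cd55* (1.34), which shields cells from complement and was not called without matIM replicate 3, with 2 higher without tnsIM replicate 3 and 3 with the block. *C1qa* (0.14), *C1qb* (-0.16) and *C1qc* (0.22), made by mature macrophages, were not called.

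Phagocytic receptors split between the populations, with 4 of 20 higher and 8 lower. *Timd4*, a receptor for phosphatidylserine on long-lived tissue macrophages, was at 1.87, 3.01 and 3.43 CPM in tnsIMs and 31.7, 31.1 and 23.2 CPM in matIMs (log2FC 3.36, SE 0.31, edgeR adjusted p = 6.71e-07). *Msr1*, scavenger receptor A, was at 734, 748 and 863 CPM in tnsIMs and 274, 323 and 273 CPM in matIMs (log2FC -1.43, SE 0.15, edgeR adjusted p = 1.64e-06). *Cd163* (1.68), *Marco* (2.16) and *Mrc1* (0.80) rose, *Mrc1* not when any 1 of 5 libraries was left out, and *Scarf1* (-2.42), *Lrp1* (-0.93), *Olr1* (-1.05) and *Stab1* (-1.04) fell. C-type lectin genes rose for 8 of 19 and fell for 6. *Mgl2*, a galactose-binding lectin of dermal and lung dendritic cells, was at 54.6, 42 and 56.1 CPM in tnsIMs and 278, 218 and 315 CPM in matIMs (log2FC 2.41, SE 0.28, edgeR adjusted p = 5.27e-06). *Clec4e*, the Mincle receptor for mycobacterial glycolipid, was at 2016, 1669.7 and 1738 CPM in tnsIMs and 992, 912 and 589.6 CPM in matIMs (log2FC -1.12, SE 0.22, edgeR adjusted p = 0.00094). The groups did not overlap for any of the 4 genes given by library. *Cd209d* (3.08), *Ly75* (2.29) and *Clec10a* (2.47) rose and *Clec4d* (-1.24), *Clec5a* (-1.08) and *Clec4n* (-0.80) fell, *Clec4n* not without matIM replicate 3, the Cd209 genes being copies that can share reads. With at least 10 counts in every library 5 lectins were higher instead of 8.

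Of 20 lipid handling genes 8 were lower and 2 higher, and leaving out matIM replicate 1, matIM replicate 3 or tnsIM replicate 2 left 5 lower. *Apoe*, apolipoprotein E, was at 1614, 2379.7 and 2284 CPM in tnsIMs and 634, 899 and 1188 CPM in matIMs (log2FC -1.21, edgeR adjusted p = 0.00177). *Spp1*, osteopontin, was at 886, 835 and 548 CPM in tnsIMs and 339.7, 236 and 123 CPM in matIMs (log2FC -1.70, edgeR adjusted p = 0.00165). Each tnsIM library exceeded each matIM library in both, *Trem2* (-1.09), *Nr1h3* (-0.73) and *Apoc1* (-2.46) fell as well, and the fatty acid binding genes *Fabp4* (1.89) and *Fabp5* (1.16) rose. Lysosomal genes were mostly not called, with 4 of 25 lower and 1, *Atp6v0d2* (1.37), higher. The cathepsin genes *Ctsc* (-1.03), *Ctsl* (-0.94), *Ctsd* (-0.91) and *Ctsb* (-0.56) were those that fell, 2 of which were lost without matIM replicate 1 or 3 or tnsIM replicate 2, and the replicate block gave 8 lower. No lysosomal member was higher without tnsIM replicate 3, and 2 were without matIM replicate 1 or tnsIM replicate 2.

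Adhesion genes are of interest because ezrin joins adhesion receptors to actin. Of 29 integrin and focal adhesion genes 4 were higher and 10 lower (median -0.37), against 8.37% higher and 9.85% lower over all genes. *Itgb5*, a chain of vitronectin receptors, was at 393, 343 and 281 CPM in tnsIMs and 161, 144 and 133 CPM in matIMs (log2FC -1.21, SE 0.15, edgeR adjusted p = 8.73e-06). *Itgb7*, which pairs with alpha 4 and alpha E for gut and epithelial homing, was at 82.2, 119 and 137 CPM in tnsIMs and 242, 306 and 328 CPM in matIMs (log2FC 1.37, SE 0.20, edgeR adjusted p = 5.19e-05). These 2 genes were separate in opposite directions. *Itgae* (3.06), *Itgb8* (4.08) and *Itga4* (0.91) rose, *Itga4* not without matIM replicate 1 or tnsIM replicate 1 or 2, and *Itga1* (-2.07), *Itga3* (-2.55), *Itga6* (-1.26) and *Itgb2* (-0.49) fell. Markers of structural lung cells, given below, fell as well, and their part in the integrin genes that fell was not tested. With at least 10 counts in every library 2 integrin genes were higher. The focal adhesion genes *Ptk2* (0.11), *Tln1* (-0.06), *Vcl* (-0.18) and *Pxn* (-0.38) were not called.

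In the list of ERM proteins and their partners 1 of 16 genes was higher and 2 were lower, shares near those of all genes (8.37% and 9.85%). *Selplg*, which encodes the selectin ligand PSGL-1 that ERM proteins anchor, was at 324, 373 and 353 CPM in tnsIMs and 806, 874 and 903 CPM in matIMs (log2FC 1.30, SE 0.15, edgeR adjusted p = 5.31e-06). *Icam2* was at 22.4, 37.3 and 30.4 CPM in tnsIMs and 8.43, 6.81 and 11 CPM in matIMs (log2FC -1.78, SE 0.21, edgeR adjusted p = 6.37e-06). *Podxl*, podocalyxin, was at 12.7, 33.6 and 31 CPM in tnsIMs and 2.29, 2.1 and 2.18 CPM in matIMs (log2FC -3.56, SE 0.48, edgeR adjusted p = 3.06e-05). *Icam2* and *Podxl* are also genes of endothelium. The groups did not overlap for these 3 genes, and *Cd44* (-0.52, edgeR adjusted p = 0.113), *Nf2* (0.15) and *Slc9a3r1* (-0.02) were not called. The replicate block gave 2 higher and 4 lower, adding *Lrrk2*, *Ezr* and *Cd44*. Of 26 actin and migration genes 6 were higher and 1 was lower. *Lsp1*, a leukocyte actin-binding protein, was at 461, 590.2 and 639 CPM in tnsIMs and 1494, 1545 and 1657 CPM in matIMs (log2FC 1.47, SE 0.17, edgeR adjusted p = 4.56e-06). *Myo1g*, a class I myosin of the membrane, was at 285, 314 and 398 CPM in tnsIMs and 707, 793 and 760.5 CPM in matIMs (log2FC 1.18, SE 0.15, edgeR adjusted p = 1.2e-05). *Rhof*, a GTPase that drives filopodia, was at 7.15, 10.2 and 9.67 CPM in tnsIMs and 41.9, 38.1 and 35 CPM in matIMs (log2FC 2.08, SE 0.19, edgeR adjusted p = 5.74e-07). With *Fscn1* these were the largest rises of the list, and no tnsIM library reached a matIM library. *Capg* (-0.60), the member called lower, kept its call in only 8 of 15 alternatives, with 0 lower without matIM replicate 2 or 3 or tnsIM replicate 1 or 2, and *Actb* (-0.12), *Cfl1* (-0.02) and *Pfn1* (0.07) were not called.

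**Figure D3:**
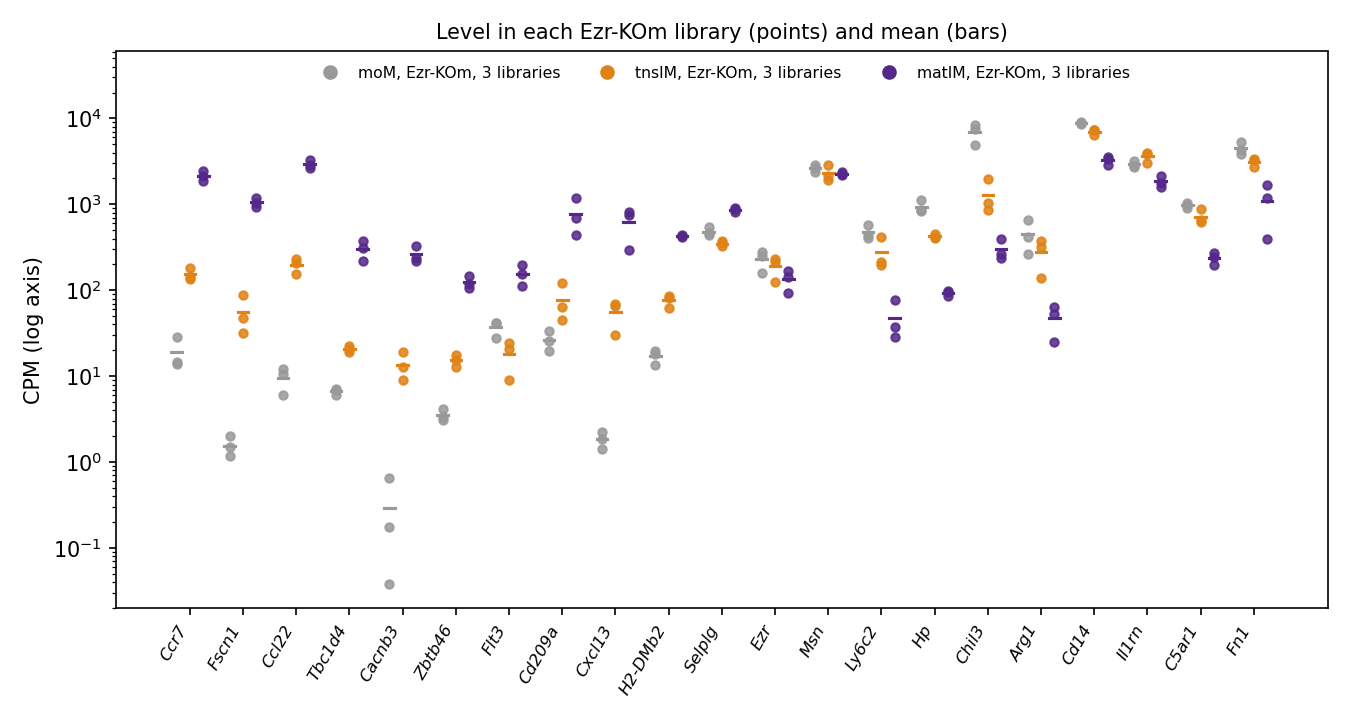
Points are the CPM of 21 genes in the 3 *Ezr*-KOm libraries of moMs (grey), tnsIMs (orange) and matIMs (purple) on a log axis, and bars are the means. From *Ccr7* to *Selplg* every matIM point lies above every tnsIM point, from *Ly6c2* to *Fn1* every matIM point lies below, and *Ezr* and *Msn* overlap.

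Among 31 transcription factors of macrophages and dendritic cells 6 rose, *Zbtb46* (3.01), *Spib* (2.29), *Etv3* (1.76), *Irf4* (1.41), *Relb* (1.05) and *Batf3* (0.85), and 5 fell, among them *Maf* (-1.31), *Cebpb* (-1.08), *Cebpd* (-0.93) and *Zeb2* (-0.58). *Etv3*, an ETS family transcriptional repressor, was at 199, 137 and 208 CPM in tnsIMs and 652, 718 and 467 CPM in matIMs (log2FC 1.76, SE 0.26, edgeR adjusted p = 6.65e-05). *Maf*, a transcription factor of macrophage identity, was at 26, 28 and 22.1 CPM in tnsIMs and 8.46, 12 and 10.2 CPM in matIMs (log2FC -1.31, SE 0.18, edgeR adjusted p = 3.78e-05). The groups did not overlap for *Etv3* or *Maf*, *Batf3* lost its call without matIM replicate 3 or tnsIM replicate 3 and *Zeb2* in 6 alternatives, and *Spi1* (-0.16), *Irf8* (0.13), *Klf4* (-0.44) and *Runx1* (-0.16) were not called, *Klf4* being called with the replicate block (edgeR adjusted p = 0.0228). Interstitial macrophage markers fell for 9 of 24 genes and rose for 4, and 11 were not called, *C1qa*, *C1qb*, *C1qc* and *Cx3cr1* among them. Their summed level was 14981 to 16904 CPM in tnsIMs and 9419 to 9862 CPM in matIMs. *Cd14*, given above with LPS recognition, set much of that sum and of its fall. *Csf1r*, the receptor on which macrophages depend, was at 2139, 2219 and 2502 CPM in tnsIMs and 1342, 1401 and 1334 CPM in matIMs (log2FC -0.75, edgeR adjusted p = 0.000239), and *Lyve1*, shared with lymphatic endothelium, fell by 2.88 on the log2 scale. The rises were *Timd4* (3.36), *Cd163* (1.68), *Mrc1* (0.80) and *Adgre1* (0.58). *Mrc1* and *Adgre1* lost their calls without matIM replicate 2 or 3 or any 1 of the tnsIM libraries.

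Monocyte genes fell, with 10 of 20 classical monocyte markers lower, 0 higher and a median of -0.94. Their summed level was 40479.5 to 48334 CPM in moMs, 20510.5 to 21431 CPM in tnsIMs and 9215 to 10516 CPM in matIMs. *Hp*, haptoglobin, was at 417, 446 and 405 CPM in tnsIMs and 85.8, 95.1 and 97.6 CPM in matIMs (log2FC -2.19, SE 0.14, edgeR adjusted p = 1.45e-08). *Chil3*, a chitinase-like protein of monocytes and alveolar macrophages, was at 866, 1034 and 1952 CPM in tnsIMs and 238, 396 and 265 CPM in matIMs (log2FC -2.10, SE 0.29, edgeR adjusted p = 4.25e-05). The matIM libraries lay below the tnsIM libraries for both, and *Thbs1* (-2.43), *Vcan* (-2.75) and *Mgst1* (-1.33) fell as well. *F13a1* (-1.20) and *S100a4* (-0.39) were not called, and the replicate block called *F13a1* (edgeR adjusted p = 0.000364). Arginine, itaconate and polarization genes divided evenly, with 7 of 20 higher and 7 lower. *Arg1*, arginase 1, was at 319, 370.4 and 140.02 CPM in tnsIMs and 63.9, 53.3 and 25.3 CPM in matIMs (log2FC -2.54, SE 0.38, edgeR adjusted p = 8.16e-05) and *Arg2* fell by 1.74 on the log2 scale, while *Retnla* (2.21), *Kynu* of the kynurenine pathway (2.60) and the cytokine signalling suppressor *Socs2* (1.53) rose. *Nos2*, inducible nitric oxide synthase, was at 40, 9.3 and 38.4 CPM in tnsIMs and 15.9, 1.72 and 3.56 CPM in matIMs and was not called (log2FC -2.04, edgeR adjusted p = 0.197), and with the replicate block it was (edgeR adjusted p = 1.72e-05).

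Most markers of structural lung cells were lower in *Ezr*-KOm matIMs. Of 25 epithelial markers 16 were lower and 1 higher (median -2.83), with a summed level of 587 to 809.9 CPM in moMs, 2661 to 4561 CPM in tnsIMs and 940.4 to 1091 CPM in matIMs. *Sftpc*, surfactant protein C of type 2 alveolar cells, was at 1321, 1161 and 572 CPM in tnsIMs and 122, 78.4 and 47.9 CPM in matIMs (log2FC -3.62, SE 0.52, edgeR adjusted p = 5.91e-05). *Sftpd*, a collectin that binds microbes, was at 459, 348 and 235 CPM in tnsIMs and 45.6, 21.7 and 22.9 CPM in matIMs (log2FC -3.53, SE 0.46, edgeR adjusted p = 2.19e-05). *Napsa*, which rose (0.65), is also made by macrophages, and *Epcam* (0.49), *Cdh1* (0.24) and *Scgb1a1* (0.74) were not called, *Epcam* lying at 10.2, 8.48 and 6.99 CPM in tnsIMs and 14.7, 11.5 and 9.77 CPM in matIMs. Of 20 endothelial markers 18 were lower and 0 higher (median -3.15), summing to 658 to 1107 CPM in tnsIMs and 259 to 278 CPM in matIMs. *Plvap*, a protein of endothelial fenestrae, was at 86.3, 141 and 138 CPM in tnsIMs and 9.93, 13 and 12.3 CPM in matIMs (log2FC -3.38, SE 0.29, edgeR adjusted p = 4.06e-07), *Kdr* (-0.58) and *Car4* (0.36) were not called, with the replicate block *Kdr* was (edgeR adjusted p = 0.0414), and the defining gene *Cdh5* was at 21, 28.7 and 29.3 CPM in tnsIMs and 2.9, 2.13 and 3.35 CPM in matIMs. Of 17 fibroblast and smooth muscle markers 13 were lower and 1 higher (median -2.16), summing to 826 to 1100.4 CPM in tnsIMs and 749 to 802 CPM in matIMs, and no marker of these 3 lists was at 0 in all 6 libraries. *Col1a1* was at 14.2, 34.9 and 20 CPM in tnsIMs and 4.3, 4.78 and 4.32 CPM in matIMs (log2FC -2.37, edgeR adjusted p = 1.42e-05), and the member called higher, *Lum* (2.07, at most 2.01 CPM), lost its call without matIM replicate 3 or tnsIM replicate 1 or 2. In each of the 3 lists every tnsIM library had a higher sum than every matIM and moM library of *Ezr*-KOm mice, and their part in the genes that fell was not tested.

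Collagen and matrix genes, given apart from the cell markers, were lower for 19 of 22 members and higher for 2 (median -2.32), and summed to 3205 to 3911 CPM in tnsIMs and 485 to 1785 CPM in matIMs. *Col4a1*, a chain of basement membrane collagen, was at 68.6, 114 and 112 CPM in tnsIMs and 14, 14 and 13.1 CPM in matIMs (log2FC -2.84, SE 0.26, edgeR adjusted p = 5.79e-07). *Fn1*, fibronectin, which monocytes themselves make, was at 3334, 3309 and 2699 CPM in tnsIMs and 1682, 1179 and 392 CPM in matIMs (log2FC -1.52, SE 0.37, edgeR adjusted p = 0.00598) and set most of the summed level. Both genes were separate, with matIM replicate 3 the lowest library for *Fn1*. The 2 members called higher, *Lum* and *Col14a1* (1.23), shrank to 0 without tnsIM replicate 1 or 2 and to 1 without any 1 of the matIM libraries. Matrix proteases and their inhibitors fell for 11 of 26 genes and rose for 2, *Adam23* (3.96) and *Mmp25* (3.13). *Mmp14*, the membrane collagenase of macrophages, was at 882, 946 and 910.3 CPM in tnsIMs and 564, 546 and 482 CPM in matIMs (log2FC -0.78, SE 0.14, edgeR adjusted p = 0.000647), *Timp3* (-3.08), *Adamts1* (-2.97) and *Serpinb2* (-1.77) fell as well, and *Mmp12* (0.16) and *Mmp9* (0.82) were not called.

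Part of the cell cycle genes rose. Of 43 S phase genes 18 rose, 0 fell and 25 were not called (median 0.71), and of 54 G2/M genes 24 rose, 0 fell and 30 were not called (median 0.95). The G2/M list had 11 higher members with at least 10 counts in every library, and 2 lower members with DESeq2 or the replicate block. *Uhrf1*, which maintains DNA methylation at replication, was at 4.99, 4.77 and 3.56 CPM in tnsIMs and 20, 30.2 and 20.2 CPM in matIMs (log2FC 2.40, SE 0.28, edgeR adjusted p = 7.42e-06). *Mcm6*, a subunit of the replicative helicase, was at 42, 40 and 38 CPM in tnsIMs and 99.9, 101 and 79.6 CPM in matIMs (log2FC 1.23, SE 0.17, edgeR adjusted p = 3.06e-05). *Tpx2*, a spindle assembly factor, was at 2.24, 1.7 and 1.99 CPM in tnsIMs and 10.2, 6.4 and 7.38 CPM in matIMs (log2FC 2.02, SE 0.27, edgeR adjusted p = 2.55e-05). *Top2a*, topoisomerase II alpha, was at 3.45, 2.25 and 3.73 CPM in tnsIMs and 12, 11.6 and 7.97 CPM in matIMs (log2FC 1.75, SE 0.24, edgeR adjusted p = 4.15e-05). Each matIM library exceeded each tnsIM library in these 4 genes. Many G2/M genes stood at a few CPM, and with at least 10 counts in every library 11 of them were called higher. *Mki67* was at 29, 23.4 and 27.5 CPM in tnsIMs and 39.8, 43.3 and 27.8 CPM in matIMs and, like *Pcna* (0.15), *Cdc20* (0.65) and *Aurka* (0.06), was not called. The summed level was 645 to 716 CPM in tnsIMs and 902 to 1006 CPM in matIMs for the S phase list and 1121 to 1271 CPM in tnsIMs and 1323 to 1429 CPM in matIMs for the G2/M list. Without tnsIM replicate 3, 1 member of each list was called lower. The summed B and plasma cell markers given next were also higher in matIMs, and their part in the cell cycle genes was not tested.

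Of 24 B and plasma cell markers 15 were higher and 1, *Sdc1* (-1.32), was lower (median 1.36), with a summed level of 972 to 1359 CPM in tnsIMs and 1960.4 to 2484 CPM in matIMs. *Jchain*, the joining chain of polymeric antibodies, was at 47.6, 46.4 and 28 CPM in tnsIMs and 417, 297 and 125 CPM in matIMs (log2FC 2.78, SE 0.42, edgeR adjusted p = 9.97e-05). *Igkc*, the kappa constant gene, was at 149, 277 and 109 CPM in tnsIMs and 1042, 889.7 and 402 CPM in matIMs (log2FC 2.12, edgeR adjusted p = 0.00278). *Ms4a1*, which encodes the B cell antigen CD20, was at 5.11, 3.29 and 14.8 CPM in tnsIMs and 15.1, 12.3 and 36.1 CPM in matIMs (log2FC 1.47) and was not called, whereas the replicate block called it (edgeR adjusted p = 0.00221). The count of members called higher was 8 without matIM replicate 3, 9 without tnsIM replicate 1 and 7 without tnsIM replicate 2. Among 26 T and NK cell markers 5 rose, *Klrk1* (2.48), *Klre1* (2.42), *Cd4* (2.41), *Il7r* (1.19) and *Cd8a* (1.15), and 1 fell, *Klrb1c* (-1.38), while *Cd3e* lay at 2.16, 4.85 and 4.03 CPM in tnsIMs and 2.29, 2.86 and 3.48 CPM in matIMs and was not called, nor was *Trbc2* (0.01). *Cd8a* lost its call in 7 of 15 alternatives, among them leaving out any 1 library other than tnsIM replicate 2 and the 6 libraries alone, and with at least 10 counts in every library 3 members were higher. *Klrk1*, the NKG2D receptor, was at 43.6, 16.6 and 29.8 CPM in tnsIMs and 179.7, 144 and 177 CPM in matIMs. *Il7r* was at 28.5, 26.4 and 31.5 CPM in tnsIMs and 70.3, 66.5 and 60.3 CPM in matIMs, and the groups were separate in both genes. The T and NK list summed to 142 to 200 CPM in tnsIMs and 304 to 409 CPM in matIMs. *Klrk1* and *Il7r* set much of that matIM level. Neutrophil markers fell for 5 of 20, *Lcn2* (-2.32), *Slfn4* (-1.93), *Trem1* (-1.002), *Csf3r* (-1.05) and *Mmp8* (-1.42), and *S100a8* (-0.31), *S100a9* (-0.35) and *Ly6g* (-0.52) were not called. *Mmp8* lost its call without tnsIM replicate 3. Without matIM replicate 3, 1 neutrophil marker was called higher. Of 20 alveolar macrophage genes 8 rose, among them *Plet1* (2.50), *Fabp4* (1.89) and *Marco* (2.16), and 2 fell, *Chil3* (-2.10) and *Krt19* (-2.49). Their summed level was lower in matIMs, at 1712 to 2836 CPM in tnsIMs and 1283 to 1581 CPM in matIMs. *Chil3* set much of the tnsIM sum. *Siglecf* (0.57), *Pparg* (0.004) and *Car4* were not called. Without tnsIM replicate 1 or matIM replicate 2 or 3 the list had 4 that rose, and without tnsIM replicate 3 it had 3.

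Further lists gave fewer calls or calls in both directions. Growth factor genes fell for 5 of 19 and rose for 1, *Pdgfc* (1.84), with 3 lower without matIM replicate 2 and 9 with the replicate block, which added *Vegfa* (edgeR adjusted p = 2.42e-05). *Tgfbi*, a matrix protein induced by TGF-beta, was at 2751, 2799 and 2592 CPM in tnsIMs and 1613, 1077 and 1275 CPM in matIMs (log2FC -1.04, edgeR adjusted p = 0.000964), and *Pdgfa* (-1.54) and *Hbegf* (-1.09) fell. Of the TNF superfamily 6 of 26 rose and 5 fell, with 10 lower under the block, 2 without tnsIM replicate 2, 3 without matIM replicate 2 and 8 without tnsIM replicate 1. *Tnfrsf11b*, the RANKL decoy osteoprotegerin, was at 1.21, 1.8 and 1.95 CPM in tnsIMs and 18.8, 30.9 and 15.8 CPM in matIMs (log2FC 3.72, edgeR adjusted p = 9.2e-06). Inflammasome and cell death genes rose for 2 of 22, among them *Bcl2* (0.73), and fell for 3, *Naip2* (-0.84), *Nlrp3* (-0.69) and *Il1b* (-0.54), counts near the shares over all genes (8.37% higher and 9.85% lower). The list had 1 higher without matIM replicate 1 or 2 or tnsIM replicate 1 or 2, and 1 lower without matIM replicate 2 or tnsIM replicate 1 and 5 without tnsIM replicate 3 or with the block. In glycolysis *Pfkp* (0.73) and *Pfkfb3* (1.05) rose, 2 of 17 and near the share over all genes (8.37%), and *Slc16a3* (-0.83), *Slc2a1* (-0.59), *Hk3* (-0.998) and *Pkm* (-0.45) fell, 4 of 17, which became 7 without tnsIM replicate 3 and 2 without matIM replicate 2 or tnsIM replicate 1, *Pfkfb3* also losing its call without matIM replicate 2. Of 19 iron and antioxidant genes 5 fell, led by the phagosomal metal transporter *Slc11a1*, at 658, 832 and 737 CPM in tnsIMs and 329, 336 and 343 CPM in matIMs (log2FC -1.14, edgeR adjusted p = 1.11e-05), with 3 without matIM replicate 3 and 8 with the block, and *Hamp*, which lay between 0.16 and 1.05 CPM, rose (1.998) with a call lost without matIM replicate 2 or 3 or tnsIM replicate 1 or 2.

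**Figure D4:**
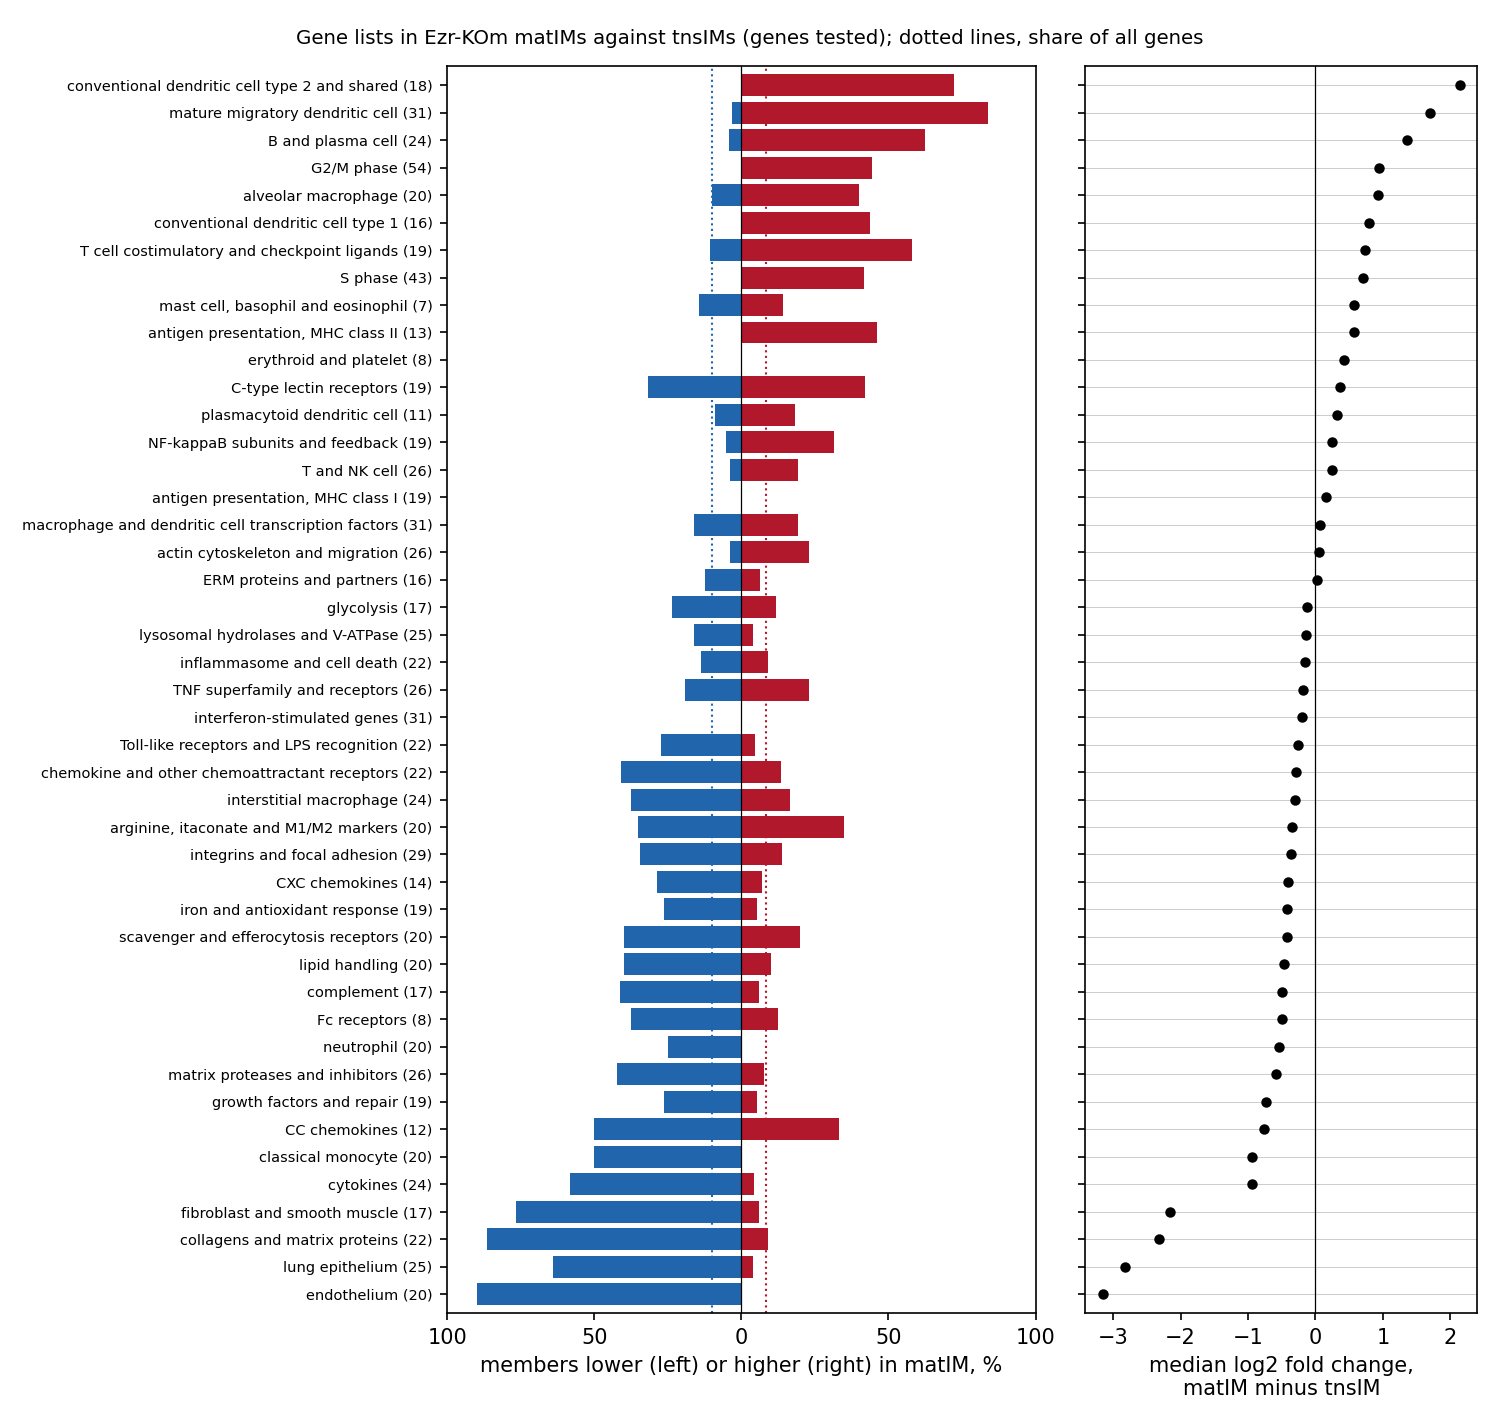
Bars in the left panel give the percent of tested members of each list (number in parentheses) called lower (blue, to the left) and higher (red, to the right) in *Ezr*-KOm matIMs, with dotted lines at the shares over all genes, 9.85% and 8.37%, and points in the right panel give the median log2 fold change. The mature migratory and type 2 conventional dendritic cell lists have the highest medians, the type 1 and plasmacytoid lists lie below the B and plasma cell and G2/M lists, and the endothelial, epithelial and matrix lists are at the bottom.

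The same step in WT cells, tested on 6 other libraries in the same model, gave 2926 genes (18.5%), 1315 higher (8.32%) and 1611 lower (10.2%). Of the genes called, 2302 were shared, all in the same direction, which is 79.9% of the *Ezr*-KOm calls and 78.7% of the WT calls. Of the 579 genes called only in *Ezr*-KOm cells, 567 had the same sign in WT, and 344 had an unadjusted WT p under 0.05. Across the 2881 genes called in *Ezr*-KOm cells Pearson's r between the log2FC was 0.945, and across all 15811 it was 0.867, a description across genes, which are not independent replicates. The difference of the step between the genotypes was called for 0 genes by edgeR (0%, smallest adjusted p = 1) and 0 by DESeq2 (smallest adjusted p = 0.147), and 183 genes had an unadjusted edgeR p under 0.05 (1.16%). The smallest p were those of *Plxnb3*, *Cdkl4* and *Aldh5a1*, with differences, *Ezr*-KOm minus WT, of 2.16, 3.72 and 4.62. In the other direction they were those of *Ighg3*, *Igkv17-127* and *Fbxo39*, with -4.32, -3.42 and -5.17. All of these genes lay at no more than 4.23 CPM in the 6 *Ezr*-KOm libraries compared. WT libraries also enter the differences, and their levels for these genes are not given. The median absolute difference over the genes called in *Ezr*-KOm cells was 0.24 on the log2 scale, with a median SE of 0.44, so this fit without a block could not resolve differences of such size. With the replicate block 318 genes had an unadjusted edgeR p under 0.05, and 0 were called. The lack of calls does not show that the step is the same in both genotypes. For the leading genes the *Ezr*-KOm and WT log2FC lay side by side at 4.24 and 4.36 for *Fscn1*, 3.80 and 4.08 for *Ccr7*, 3.90 and 4.29 for *Ccl22*, 3.01 and 2.75 for *Zbtb46*, -3.62 and -3.52 for *Sftpc* and -2.53 and -2.10 for *Ly6c2*. The list medians were likewise 1.70 and 1.30 for migratory dendritic cell genes, -0.94 and -0.83 for cytokines and 0.95 and 1.01 for G2/M genes, differences between genotypes that were not tested for lists.

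**Figure D5:**
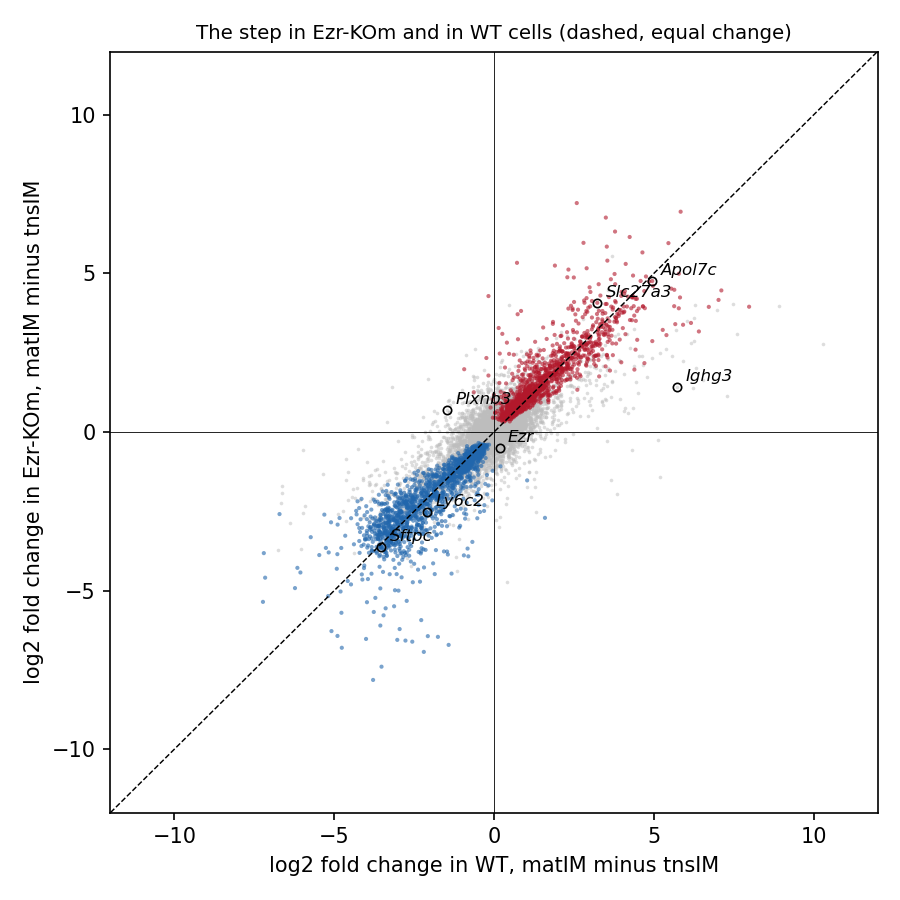
Each point is 1 gene, with its log2 fold change, matIM minus tnsIM, in WT on the horizontal axis and in *Ezr*-KOm on the vertical axis, coloured by its call in *Ezr*-KOm cells (red higher, blue lower, grey not called). The genes called follow the dashed line of equal change (r = 0.945), and *Ezr* lies below it, at 0.17 in WT and -0.50 in *Ezr*-KOm.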

How the data were processed

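RNA from FACS-sorted lung cells was made into libraries by the study with the SMART-Seq v4 and Nextera XT kits, checked with FastQC and aligned to GRCm39 with STAR 2.7.9a under the Gencode annotation. The deposited values are raw counts per gene, 1 column per library, as the authors obtained them from STAR's gene counting. Which strand column was taken is not given in the sources used here, so overlapping and antisense genes cannot be told apart, and near-identical copies (*Ly6c1* and *Ly6c2*, the Cd209 and Klr families, H2-Q genes, immunoglobulin segments) may share reads.

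From these counts, edgeR 4.0.16 in R 4.3.3 applied filterByExpr (smallest count 10), TMM scaling and a quasi-likelihood fit of 6 groups and 18 libraries without a block. Contrasts were tested two-sided with Benjamini-Hochberg adjustment at 0.05, and the difference of the step between genotypes was an interaction contrast. On simulated counts the fit was tested before use. CPM in the text are TMM-scaled. Levels at or under 3 counts in a library were taken as the floor, and depth sets the precision. Replicates are sorted samples from mice, and p-values weigh a difference against the spread within groups, estimated over all 6 groups.

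Replicate numbers of the labels recur in every group. Deviations from the group means correlated across genes at 0.182 to 0.32 between *Ezr*-KOm matIM and tnsIM libraries of the same number and at most at -0.0301 between those of different numbers. WT and *Ezr*-KOm libraries of the same number, which cannot share a mouse, also correlated, at 0.242, 0.188 and 0.315 in tnsIMs and 0.226, 0.15 and 0.102 in matIMs. With different numbers those correlations were at most 0.0321. The number thus marks something that libraries share across genotypes too, and whether it also marks a mouse was not tested. Fits with the replicate number as a block were alternatives, as were DESeq2 1.42.0, upper-quartile and library-total scaling, other filters on low counts, robust empirical Bayes, the 6 libraries alone and leaving out each library in turn.

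The comparison, its gene lists and its tests were chosen with earlier results of these data known. Genes are named by rule: the 12 largest rises and 12 largest falls among called genes of at least 10 CPM in the higher group, up to 6 genes per list and direction with the smallest p, the genes of the sort and the knockout, the 3 smallest p in each direction of the interaction, and list members given as not called. Provisional names (Gm, Rik or accession numbers), pseudogenes, and immunoglobulin and T cell receptor segments were left out of the 12 largest in each direction. *Fn1*, *Slco5a1* and *Cd200* fall outside the naming rule and were chosen after their values were seen. Promoters are the 250 bases before the annotated start, present for 13212 of 13217 protein-coding genes tested. Some list members are counted but not reported here by name. Figures were drawn with matplotlib 3.10.9.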

Additional observations from a re-analysis of the deposited data

How the results depend on the processing

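The genotype difference was called for 0 genes under every alternative run. The number of genes called in *Ezr*-KOm cells was 2309 to 2858 when 1 of the 6 libraries compared was left out, 3250 with DESeq2 and 2474 with the 6 libraries alone. With the replicate block, which takes up what libraries of the same number share, it was 3861 (1820 higher and 2041 lower), of which 2872 were also called without it. Requiring at least 10 counts per library, which kept 11444 genes, gave 1837, with 867 higher, 970 lower and 1597 by the rule of the study, and WT cells gave 1760. The share of calls that were higher stayed between 41.6% and 49.1%. Of the 279 called genes named in the text or set by the naming rule, 233 kept their call in the alternatives that could test them, 46 lost it in at least 1 and 0 changed sign. Genes near no change did change sign. *Itgax* turned to -0.0192 with upper-quartile scaling, -0.00521 without a filter, -0.00123 with at least 10 counts, -0.0224 in the 6 libraries alone, -0.0011 with the replicate block and -0.0392 with the block in those 6, and ranged from -0.221 (without matIM replicate 1) to 0.113 with 1 library left out, with -0.0893 without tnsIM replicate 2. *Msn* turned to 0.00311 with library totals and ranged from -0.156 to 0.098 (without tnsIM replicate 3) with 1 library left out. *Ptprc* ranged from -0.0816 to 0.398, being -0.0381 and -0.0816 without tnsIM replicate 1 or 2, and *Cx3cr1* from -0.21 (without matIM replicate 3) to 0.275. The cause of these changes was not tested. Depth limits genes of few counts, since the floor lay at 0.0599 to 0.127 CPM.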

Other observations

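Immunoglobulin variable and constant segments were higher in *Ezr*-KOm matIMs than in tnsIMs. Of 168 segments tested 68 rose and 1 fell, and their summed level was 630, 1010 and 548 CPM in the tnsIM libraries of replicates 1, 2 and 3 and 4720, 3420 and 1950 CPM in the matIM libraries. The groups did not overlap, and matIM replicate 3 was the lowest of its group. Segments are near-identical copies, so single segments are not named, and the part that B or plasma cells have in this sum was not tested.

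Of 1161 long noncoding RNAs 66 rose and 45 fell, and of 766 pseudogenes 15 rose and 12 fell. These shares lie below those over all genes tested (8.37% higher and 9.85% lower). *Fendrr*, a long noncoding RNA of lung mesenchyme and endothelium, was at 6.07, 9.36 and 12 CPM in tnsIMs and 0.717, 0.929 and 0.755 CPM in matIMs (log2FC -3.50, SE 0.49, edgeR adjusted p = 4.17e-05), and *Bvht*, known from cardiovascular cells, at 5.9, 7.5 and 3.35 CPM in tnsIMs and 1.08, 0.86 and 0.713 CPM in matIMs (log2FC -2.66, SE 0.35, edgeR adjusted p = 2.07e-05). Both fell together with the endothelial markers. *A530010L16Rik* rose, with 1.66, 3.17 and 2.59 CPM in tnsIMs and 20, 26.6 and 24.7 CPM in matIMs (log2FC 3.24, SE 0.29, edgeR adjusted p = 5.74e-07). These 3 RNAs were chosen after their values were seen.

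Of 7 mast cell, basophil and eosinophil markers tested *Cd200r3* (2.17) rose and *Gata2* (-3.20) fell, with sums of 22.3 to 29.4 CPM in tnsIMs and 12.7 to 14.1 CPM in matIMs, and without tnsIM replicate 2 no member was higher. Endothelial markers fell too (median -3.15), and the part of endothelial cells in the fall of *Gata2* was not tested. Of 8 erythroid and platelet genes tested 0 were called by edgeR or DESeq2, 1 with an unadjusted p under 0.05, and 1 was called with the replicate block or without tnsIM replicate 2, and their sums were 41.5 to 79.4 CPM in tnsIMs and 72.5 to 124 CPM in matIMs.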
